A study of Mus musculus with 10 samples.

Results

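The 10 genes described here belong to the fibroblast growth factor (FGF) family and its receptors. They are the secreted ligands Fgf1, Fgf2, Fgf9 and Fgf10, the intracellular factors Fgf12, Fgf13 and Fgf14, and the receptor tyrosine kinases Fgfr1, Fgfr2 and Fgfr3. They were chosen by symbol from the 33502 gene symbols of the deposited matrix, which held all 10. Single nuclei were sequenced from tissue punches of the PVT, the paraventricular midline nucleus of the thalamus, and of the regions around it, in C57BL/6J mice aged 12 weeks, for which the labels name no transgene and no treatment. The methods describe tissue of 4 mice pooled for each sample, so a library is taken as a pool and not an animal. They count 4 such samples, fewer than the libraries here, and do not say whether the rest were pooled. There were 10 libraries, of which 6 were labelled female. The labels of the other 4 give no sex and the deposited metadata call them male; they are called unsexed libraries 1 to 4 here.

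The matrix held 20503 nuclei with counts of unique molecular identifiers (UMIs), each UMI standing for 1 captured RNA molecule. Total UMIs per library ranged from 5119927 to 55956635, with 895 to 7213 nuclei in the unsexed libraries and 1049 to 1615 in the female ones. The nuclei carry deposited cluster names, which were merged into 8 cell types: 10410 neurons, 5302 astrocytes, 2462 oligodendrocytes, 993 microglia, 473 oligodendrocyte precursor cells (OPCs), 469 ependymal cells, 215 endothelial cells and 179 fibroblasts. Each list of type markers was highest in its own type. Neuron markers summed to between 10.6% and 18.6% of their neuronal level in the other 7 types, and unsexed library 4 had the highest neuron marker sum of all libraries in each of these 7. Of 20457 distinct barcodes, 46 occurred in more than 1 library, at most 8 in any pair. Mitochondrial genes had 562659 UMIs in the female libraries and 0 in the others.

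FGFs bind receptor tyrosine kinases on the cell surface together with heparan sulfate, and the activated receptor signals through adaptor proteins to the MAP kinase cascade and to target genes, several of which feed back to dampen the signal. In the brain the pathway is known for patterning in the embryo and later for its part in glial development, myelin growth and the response to injury. Fgf12, Fgf13 and Fgf14 are different: they are not secreted, do not signal through these receptors in the usual way, and bind the intracellular tail of voltage-gated sodium channels at the axon initial segment.

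UMIs were summed per library and class and are given as CPM, the share of all UMIs of the sum in the usual counts-per-million unit, scaled between sums with TMM factors, as the mean ± SD over libraries with at least 10 nuclei of the class. Mitochondrial genes were left out of the sums. Each class was compared with the mean of the other classes by edgeR's quasi-likelihood test with the library as a block, and all adjusted p-values are from this test with Benjamini-Hochberg adjustment over all genes tested. Calls of higher or lower required a log2 fold change of more than 0.5 in size whose adjusted p was below 0.05. Fold changes are given as log2 ± SE. The scaling was done separately for cell types, for neuron groups and for PVT subtype groups, so that levels are to be compared within each of these 3 sets and not between genes. Nothing in the sums tells fewer expressing cells apart from less RNA per cell. With the library as a block, the p-values measure how far a class difference varies between these libraries. The comparison of female with unsexed libraries has no block, and its p-values measure the spread between libraries.

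Across the 8 cell types the FGF genes with enough counts did not all have the same leading type. Fgfr3 was an astrocyte gene, Fgfr2 was highest in oligodendrocytes, Fgfr1 in fibroblasts, ependymal cells and astrocytes, Fgf1 in astrocytes, and Fgf12, Fgf13 and Fgf14 in neurons. These 7 members passed the filter on low counts, while Fgf2, Fgf9 and Fgf10 did not and were fitted without it. Of 56 tests of the 7 members, 17 were called higher and 20 lower, that is 30.4% and 35.7%, beside 21.3% and 20.4% of the tests of all 9789 genes. By type the shares of all genes called higher and lower ran from 11.2% and 9.12% in fibroblasts to 29.7% and 27.5% in neurons, with 22.8% and 27.4% in microglia, 26.7% and 19.2% in ependymal cells, 18.4% and 20% in endothelial cells and 19.2% and 14.7% in OPCs. The members that passed include those that passed through their leading type alone, so these shares describe them and are not a test.

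**Figure D1:**
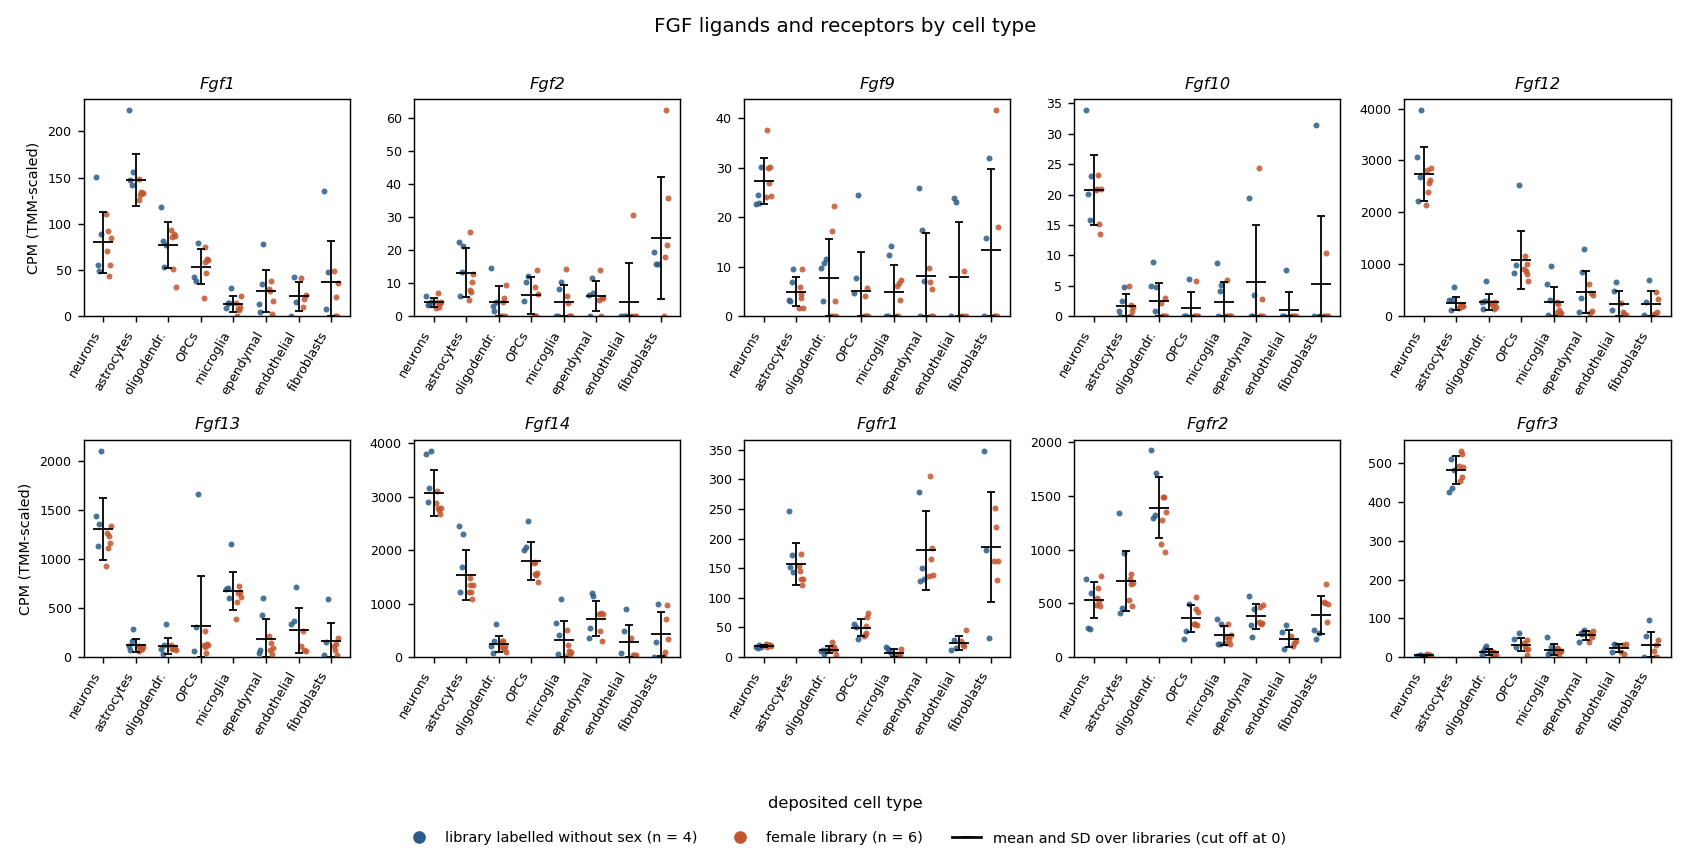
Level of the 10 FGF genes in 8 cell types, in CPM with TMM scaling on a linear axis that differs between panels; each point is 1 library (blue, labelled without sex; orange, female) and the bars are mean and SD. Fgfr3 was between 426 and 533 CPM in the astrocytes of all 10 libraries and at most 95.8 CPM in any other type, and Fgf13 in microglia was between 386 and 1159 CPM.

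Fgfr3 separated astrocytes from every other type. Its level in astrocytes ranged from 426 through a median of 488 to 533 CPM (482 ± 36.3 CPM, SD, n = 10 libraries). Ependymal cells came next with 56.6 ± 11.2 CPM (n = 9), and neurons had the lowest level with 4.93 ± 1.55 CPM (n = 10). The astrocyte values of all libraries lay above every value of the other 7 types. The fold change of astrocytes against the mean of the other types was 4.42 ± 0.11 (adjusted p = 1.9e-47), that against ependymal cells alone 2.97 (adjusted p = 3.2e-24), and neurons were lower than the other types by -3.24 ± 0.18 (adjusted p = 6.9e-27). Ependymal cells were also called higher, by 1.02 ± 0.20 (adjusted p = 1.0e-05), but with nuclei of up to 1% mitochondrial UMIs alone the value was -0.10. When every nucleus was thinned to 2000 UMIs, 55.9% ± 4.21 of astrocyte nuclei had at least 1 Fgfr3 UMI, against 0.894% of neuronal nuclei, which stand here for the background of free RNA in the droplets. Astrocyte markers summed in neurons to 4.40% of their astrocyte level and Fgfr3 to 1.02%. Fgfr3 lies on chromosome 5 (GRCm38, 5:33721674-33737068, plus strand).

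Fgfr1, the receptor with the broadest known expression, was led by 3 types. Its level was 186 ± 92.4 CPM in fibroblasts (31.9 to 348, n = 8), 180 ± 66.5 CPM in ependymal cells (129 to 306, n = 9) and 157 ± 35.6 CPM in astrocytes (121 to 247, n = 10). These 3 overlapped, and neither fibroblasts and ependymal cells (adjusted p = 0.59) nor ependymal cells and astrocytes (adjusted p = 0.11) passed the test. OPCs followed with 49.7 ± 14.9 CPM, below astrocytes by a log2 difference of 1.52 (adjusted p = 9.8e-11). Neurons had 19.1 ± 2.12 CPM, between 16.0 and 22.0 in all 10 libraries, and were called lower than the other types by -1.45 ± 0.14 (adjusted p = 5.0e-15). Oligodendrocytes (-2.25 ± 0.22) and microglia (-2.75 ± 0.28) were called lower as well, with microglia at 7.56 CPM and 3 libraries at 0. The gene lies at 8:25513654-25575718 on the plus strand.

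Fgfr2, which in the adult brain is known as the main FGF receptor of myelinating glia, was highest in oligodendrocytes. The values there ran from 980 through a median of 1339 to 1927 CPM (1390 ± 284 CPM, n = 10). Astrocytes had 707 ± 280 CPM and neurons 528 ± 167 CPM. Oligodendrocytes exceeded astrocytes in 10 of 10 libraries, although the 2 ranges overlapped over all libraries. The fold change was 1.94 ± 0.10 for oligodendrocytes against the other types (adjusted p = 4.6e-29), 1.08 against astrocytes alone (adjusted p = 7.3e-10), and 0.71 ± 0.11 for astrocytes against the other types. Microglia (204 CPM, -1.25 ± 0.13) and endothelial cells (170 CPM, -1.45 ± 0.17) were called lower. At 2000 UMIs 85.4% ± 3.50 of oligodendrocyte nuclei had an Fgfr2 UMI. The level in the other types was 12.2% to 50.8% of that in oligodendrocytes, where the oligodendrocyte markers reached 0.505% to 2.45%.

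Most genes inside the longest Fgfr2 model on the same strand had counts in the unsexed libraries and none in the female ones. In the GENCODE vM21 annotation of GRCm38, Fgfr2 lies on the minus strand of chromosome 7 and spans 2961 kb (7:130162451-133123350), because 1 of its 27 transcripts reaches over many neighbouring genes. Without that transcript it spans 104 kb and ends at 130266263. Of 12 protein-coding genes on the same strand inside the longer span that had at least 20 UMIs in the unsexed libraries, 11 had 0 UMIs in the female libraries, with 133 UMIs in all against 18459. Of 13 such genes on the opposite strand none was at 0, with 22029 UMIs in the female and 57441 in the unsexed libraries. Whether the 2 sets were counted with the same annotation is not known here, and the part of this in the Fgfr2 level was not tested. Within the female libraries alone the oligodendrocyte fold change was 1.75 ± 0.11 and within the unsexed ones 2.27 ± 0.17, both past the test (adjusted p = 5.0e-21 and 1.0e-12). The unsexed libraries also split among themselves, with neuronal Fgfr2 at 727 and 594 CPM in libraries 1 and 4 and at 271 and 261 CPM in libraries 2 and 3.

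Among the secreted ligands Fgf1, which binds all FGF receptors, had the highest counts. In astrocytes it ranged from 126 through a median of 138 to 223 CPM (148 ± 28.2 CPM, n = 10), in neurons it was 80.1 ± 32.9 CPM and in oligodendrocytes 76.8 ± 24.8 CPM. Astrocytes lay above neurons in each of the 10 libraries, and the highest astrocyte value, that of unsexed library 1, stood apart from the rest. All 3 types were called higher than the other types, astrocytes by 1.85 ± 0.15 (adjusted p = 7.0e-18), neurons by 0.74 ± 0.15 (adjusted p = 1.6e-05) and oligodendrocytes by 0.73 ± 0.19 (adjusted p = 6.8e-04), and microglia were called lower, by -1.77 ± 0.30 (12.9 CPM). Within the unsexed libraries alone the neuron and oligodendrocyte fold changes were 0.54 and 0.51 and missed the call. The call in ependymal cells (-0.69, adjusted p = 0.033) was lost in 5 of the 10 fits that left out 1 library, and with nuclei of up to 1% mitochondrial UMIs alone the value was 0.91. Fgf1 lies inside Arhgap26, which is transcribed from the opposite strand of chromosome 18 (18:38838673-38929472 for Fgf1).

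Fgf10 and Fgf9 were neuronal, at low counts. Fgf10, a ligand of the Fgfr2 splice form of epithelia that is also known from the hypothalamus, had 20.7 ± 5.70 CPM in neurons (13.5 to 33.9, n = 10), 1.75 CPM in astrocytes and no type above 5.58 CPM outside neurons. Its neuronal values lay above those of astrocytes, oligodendrocytes, microglia, OPCs and endothelial cells in all libraries, and the fold change without the filter was 2.93 ± 0.22 (adjusted p = 4.3e-27). Fgf9, a secreted ligand made by neurons, had 27.3 ± 4.70 CPM in neurons (22.7 to 37.6). It was called higher there by 1.86 ± 0.17 (adjusted p = 4.8e-20), its neighbour in the order, fibroblasts, had 13.4 ± 16.4 CPM from 10 UMIs in all, and that pair did not pass the test (adjusted p = 0.20). In these fits 29.8% of 28832 genes were called higher and 11% lower in neurons, so a neuronal call was common. Fgf2, the classical astrocyte and meningeal ligand, had 23.7 ± 18.5 CPM in fibroblasts from 16 UMIs and 13.3 ± 7.40 CPM in astrocytes from 233 UMIs. Both were called higher (2.19 ± 0.48, adjusted p = 2.2e-04, and 1.11 ± 0.22, adjusted p = 8.7e-06), and the 2 types did not pass the test against each other (adjusted p = 0.18). Fgf2 was called lower in neurons (-0.78 ± 0.24, adjusted p = 3.9e-03) and oligodendrocytes (-1.23 ± 0.38, adjusted p = 6.2e-03), and Fgf9 in astrocytes (-0.83 ± 0.26, adjusted p = 6.8e-03). Without the filter the shares of all genes called higher and lower were 5.55% and 4.35% in fibroblasts, 17.4% and 7.42% in astrocytes, 13.7% and 9.86% in oligodendrocytes, 7.41% and 8.07% in endothelial cells, 16.5% and 8.26% in ependymal cells, 13.7% and 10.2% in microglia and 10.2% and 5.15% in OPCs. At 2000 UMIs 3.18% of neuronal nuclei had an Fgf10 UMI against 0.15% of astrocytes, and the 3.00% of fibroblasts rest on 5 UMIs in all.

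The stretches of 250 bases before the annotated start were read for the members that RefSeq lists on GRCm38.p6, 8 of the 10. The promoters of 3 are shown because the genes have different patterns among neurons: Fgf9 and Fgf10, whose levels turned on the subtype, and Fgf12, which stayed under the limit of 0.5 in each of them. They are given 5′ to 3′ on the strand of the gene, with capitals for the letters CCAAT and GGGCGG on either strand. These are the sites known for the factor NF-Y and for Sp1, and TATAAA was searched as well.
Fgf9, chr14:58072436-58072685, plus strand: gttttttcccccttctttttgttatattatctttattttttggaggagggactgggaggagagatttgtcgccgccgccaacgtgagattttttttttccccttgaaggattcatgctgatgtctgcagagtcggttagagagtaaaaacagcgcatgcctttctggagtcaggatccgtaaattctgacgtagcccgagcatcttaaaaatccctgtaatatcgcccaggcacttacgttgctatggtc
Fgf10, chr13:118714449-118714698, plus strand: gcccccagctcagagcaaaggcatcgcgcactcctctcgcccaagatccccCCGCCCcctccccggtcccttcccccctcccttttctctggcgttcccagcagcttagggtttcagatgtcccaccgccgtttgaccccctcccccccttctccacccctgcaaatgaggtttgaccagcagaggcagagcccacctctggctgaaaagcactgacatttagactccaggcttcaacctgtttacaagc
Fgf12, chr16:28753244-28753493, minus strand: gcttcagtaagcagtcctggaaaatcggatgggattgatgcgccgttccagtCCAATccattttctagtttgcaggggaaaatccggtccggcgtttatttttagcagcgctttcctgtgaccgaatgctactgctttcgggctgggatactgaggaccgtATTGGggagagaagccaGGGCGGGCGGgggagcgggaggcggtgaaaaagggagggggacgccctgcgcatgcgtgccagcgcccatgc
The Fgf9 stretch held none of the 3 words and had a GC content of 44.8%, below the median of 52.4% over all 32851 promoters of the table. The Fgf10 stretch had 61.2% GC and 1 GGGCGG on the reverse strand, and the Fgf12 stretch had 58.4% GC with 2 CCAAT and 2 overlapping GGGCGG. It is that of the most upstream of 4 Fgf12 starts in the table, and the stretches of the other 3 had 63.6% to 69.2% GC, no CCAAT and 0 to 2 GGGCGG. Of 15 promoters of the members 3 held CCAAT, 10 held GGGCGG and 0 held TATAAA, and among all promoters the shares were 33.8%, 32.7% and 12.4%. None of the bases shown lies in an annotated exon. A match is a run of letters, and no binding was measured.

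The 3 intracellular factors were neuronal genes with different second types. Fgf12 ranged from 2137 through a median of 2656 to 3975 CPM in neurons (2736 ± 521 CPM), Fgf13 from 928 through 1252 to 2111 CPM (1310 ± 317 CPM) and Fgf14 from 2672 through 2889 to 3861 CPM (3071 ± 427 CPM), each over 10 libraries. All 3 were higher in neurons than in each other type in every library that had both, and for Fgf14 no value of another type reached the lowest neuronal one. The fold changes against the other types were 3.10 ± 0.19 (adjusted p = 2.3e-24), 2.75 ± 0.16 (adjusted p = 3.2e-25) and 2.49 ± 0.22 (adjusted p = 3.7e-17), and 29.7% of all genes were called higher in neurons.

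Microglia were the second type for Fgf13 and not for its relatives. Fgf13 in microglia ran from 386 through a median of 662 to 1159 CPM (678 ± 195 CPM, n = 10) and was called higher by 1.80 ± 0.18 (adjusted p = 1.0e-13). It was lower than neurons in 10 of 10 libraries and higher than the next type, OPCs, by 1.76 (adjusted p = 1.4e-07). Fgf12 and Fgf14 were called lower in microglia, by -1.02 ± 0.27 and -1.53 ± 0.30. Both calls were lost in the unsexed libraries alone (-0.57, adjusted p = 0.31, and -0.96, adjusted p = 0.094), and that of Fgf12 also without the library block (-0.80, adjusted p = 0.065) and with nuclei of up to 1% mitochondrial UMIs alone (-0.86, adjusted p = 0.060). As a share of the neuronal level, Fgf13 in microglia was 51.8%, Fgf12 10.1% and Fgf14 10.6%, and the 6 neuron markers together 15.7%, with single markers from 10.1% to 30.6%. At 2000 UMIs 53.1% ± 10.3 of microglial nuclei had an Fgf13 UMI, against 15.1% of astrocytes and 14.6% of oligodendrocytes.

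OPCs and astrocytes stood out for Fgf14, and OPCs for Fgf12. Fgf14 was 1801 ± 356 CPM in OPCs (1398 to 2550, n = 9) and 1534 ± 473 CPM in astrocytes (1089 to 2453, n = 10), called higher by 1.77 ± 0.24 (adjusted p = 3.2e-09) and 1.31 ± 0.23 (adjusted p = 1.4e-06). Neurons and OPCs did not pass the test against each other (0.64, adjusted p = 0.11), although all neuronal values lay above those of OPCs. These levels were 58.6% and 49.9% of the neuronal one, against 17.7% and 10.6% for the neuron markers. Fgf12 in OPCs was 1090 ± 557 CPM, with 2532 CPM in unsexed library 4 and 679 to 1163 CPM in the others, and was called higher by 1.61 ± 0.22 (adjusted p = 5.8e-09). That library also had the highest Fgf13 in OPCs, 1670 CPM where the median was 128 CPM, and the highest neuron marker sum in OPCs, 3050 CPM before TMM scaling where the lowest library had 540 CPM. Leaving it out changed none of the 37 calls, whereas with nuclei of up to 1% mitochondrial UMIs alone the OPC fold changes of Fgf12 (1.08, adjusted p = 0.24) and Fgf14 (1.27, adjusted p = 0.13) missed the call. In astrocytes and oligodendrocytes Fgf12 was at 9.04% and 9.85% of the neuronal level, no more than the 10.6% and 14.9% of the neuron markers.

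**Figure D2:**
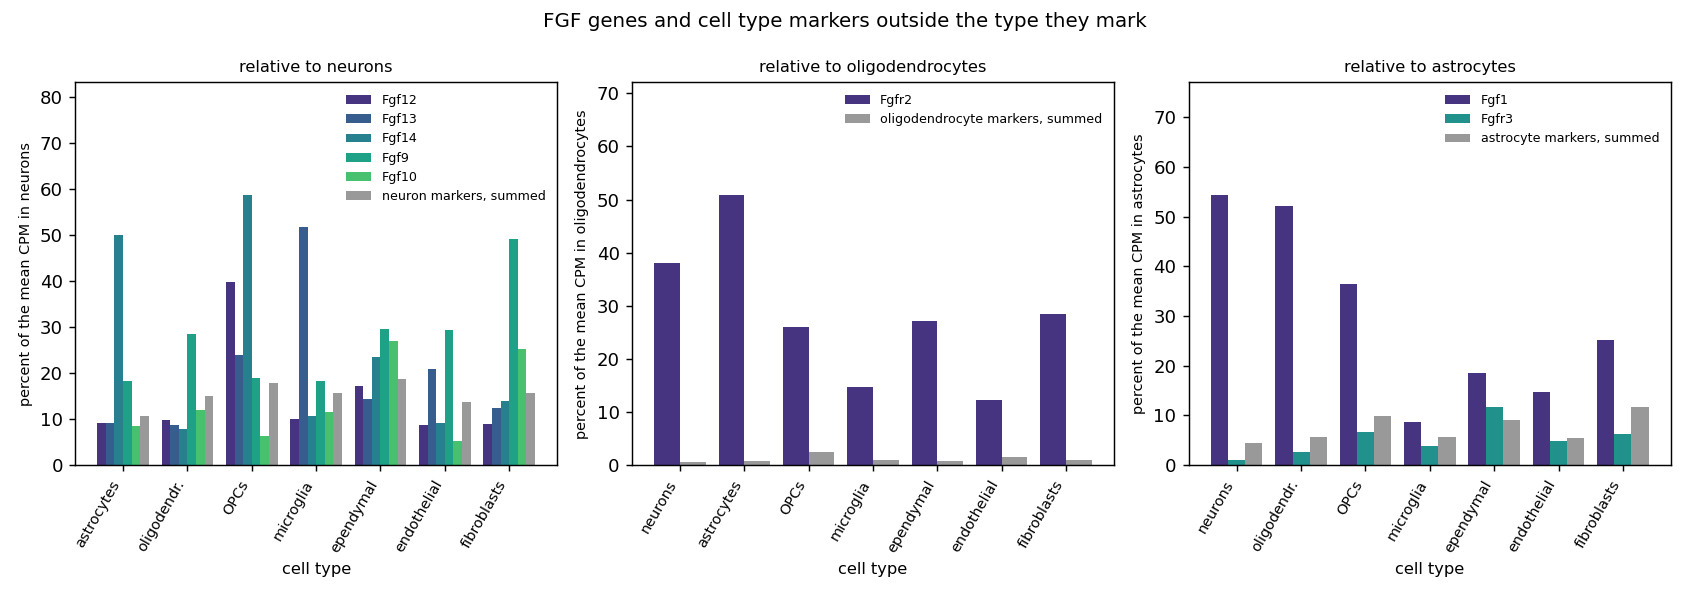
Mean level of FGF genes in cell types other than their leading one, as percent of the level in neurons (left), oligodendrocytes (middle) and astrocytes (right), with the summed markers of the leading type in grey; bars start at 0. Fgf13 in microglia (51.8%), Fgf14 in OPCs (58.6%) and astrocytes (49.9%) and Fgf1 in neurons (54.3%) stood above the grey bars, while Fgf12 in astrocytes (9.04%) and Fgfr3 in neurons (1.02%) did not.

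The neurons were next split by the marker genes that the study uses for regions: C1ql3 for the PVT, Adarb2 for the mediodorsal nucleus (MD), Lpl for the intermediodorsal nucleus (IMD), Gad2 for the principal nucleus of the bed nucleus of the stria terminalis (BSTpr) and Nwd2 for the habenula. Of 10307 neurons with over 1000 genes, 6266 (60.8%) were assigned: 3501 C1ql3, 1575 Adarb2, 810 Nwd2, 319 Gad2 and 61 Lpl neurons. Nwd2 neurons also had the habenular genes Tac2 (917 CPM) and Pou4f1 (95.3 CPM), at most 18.8 and 2.03 CPM in the other groups. The Gad2 group was not pure, with C1ql3 at 201 CPM, and the Lpl group reached 10 nuclei in 2 libraries only. For these 2 groups the same test over the deposited neuron clusters that carry the marker, in 10 libraries each, is given beside the split. Few nuclei of these clusters had been assigned to the marker. The cluster with most Lpl held 45 Lpl, 225 Adarb2 and 487 unassigned neurons. That with most Gad2 held 127 Gad2, 88 Adarb2 and 672 unassigned neurons. Their values therefore describe the clusters and not the groups of the split.

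All 10 members passed the filter in neurons, and of 50 tests 13 were called higher and 9 lower (26% and 18%), beside 11% and 6.62% of the tests of all 13911 genes. Nwd2 neurons accounted for 3 higher and 4 lower calls. Of all genes 21.7% were called higher and 18.6% lower in that group, 12.2% and 6.94% in Adarb2, 10.6% and 4.15% in C1ql3, 7.85% and 2.54% in Gad2 and 2.73% and 0.884% in Lpl neurons. Each group enters the comparisons of the others, so these shares describe the members and are not a test.

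In Nwd2 neurons Fgf13 was lower and Fgf1 and Fgf10 were higher than in the other groups. Fgf13 ranged from 54.6 through a median of 94.6 to 275 CPM (119 ± 72.4 CPM, n = 10), and in C1ql3 neurons from 1105 through 1362 to 1945 CPM (1387 ± 230 CPM). No Nwd2 value reached any value of another group, and the fold change was -3.22 ± 0.13 (adjusted p = 6.4e-27). At 2000 UMIs 15.4% ± 5.90 of Nwd2 nuclei had an Fgf13 UMI and 87.3% ± 3.14 of C1ql3 nuclei. Fgf12, its relative, was lower as well (857 ± 346 CPM, -1.50 ± 0.09, adjusted p = 2.5e-19), whereas Fgf14 was 3441 ± 1149 CPM with a fold change of 0.38 (adjusted p = 4.3e-05) that stayed under the limit of 0.5.

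Fgf1 in Nwd2 neurons ranged from 75.3 through a median of 186 to 335 CPM (206 ± 72.8 CPM), and its lowest value, in a female library, was the only one within the range of Adarb2 or Gad2 neurons. It lay above each other group in every library, by 2.07 ± 0.15 (adjusted p = 1.2e-16). Fgf10 ranged from 4.84 through 53.3 to 97.1 CPM (55.6 ± 27.5 CPM) and was called higher by 1.92 ± 0.21 (adjusted p = 9.6e-11), with 420 UMIs in 810 nuclei. Fgf9 (4.83 CPM, -2.12 ± 0.25) and Fgfr1 (4.26 CPM, -1.57 ± 0.29) were called lower, and Fgfr3 was called higher at 9.90 ± 7.16 CPM (1.21 ± 0.38, adjusted p = 7.4e-03) from 54 UMIs. The Fgfr3 call was lost with nuclei of up to 1% mitochondrial UMIs alone (0.71, adjusted p = 0.25), with at least 3 marker UMIs (0.86, adjusted p = 0.063) and in the unsexed libraries alone (1.07, adjusted p = 0.059). Astrocyte markers summed to 141 CPM in Nwd2 neurons and to 319 to 422 CPM in the other groups. The part of free astrocyte RNA in the Fgf1 and Fgfr3 levels was not tested.

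**Figure D3:**
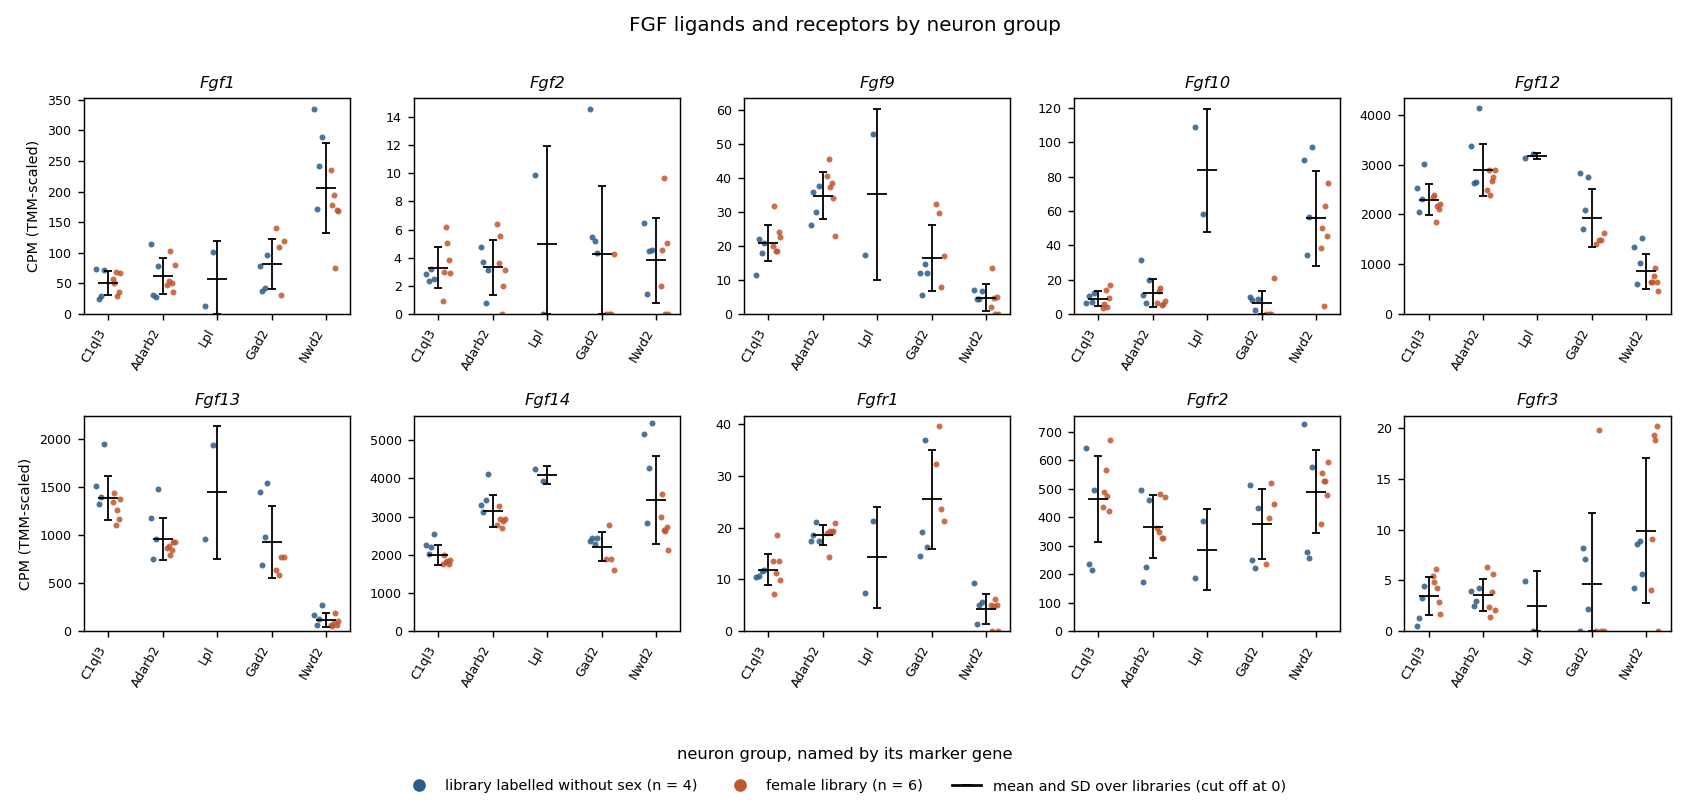
Level of the 10 FGF genes in 5 groups of neurons named by their marker, in CPM with TMM scaling on linear axes that differ between panels; each point is 1 library (blue, labelled without sex; orange, female) and the bars are mean and SD, over 10 libraries for C1ql3, Adarb2 and Nwd2, 8 for Gad2 and 2 for Lpl. Fgf13 was at 54.6 to 275 CPM in Nwd2 neurons and at 585 CPM or more in the other groups.

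C1ql3 neurons, the group marked for the PVT, were called higher for Fgf13 alone (1.25 ± 0.10, adjusted p = 1.3e-14). Fgf14 (2005 ± 259 CPM, -0.62 ± 0.08), Fgf10 (9.00 ± 4.39 CPM, -1.48 ± 0.24) and Fgf1 (50.7 ± 19.7 CPM, -0.80 ± 0.19) were called lower there. The Fgf14 and Fgf10 calls were lost in sums of at least 25 nuclei (-0.47, and -0.64 with an adjusted p of 0.10), that of Fgf10 also in the female libraries alone (-0.79, adjusted p = 0.19), and that of Fgf1 without unsexed library 4 (-0.47, adjusted p = 0.39) and with at least 3 marker UMIs (-0.50, adjusted p = 0.41). Adarb2 neurons were called higher for Fgf9 with 34.9 ± 6.82 CPM (1.14 ± 0.14, adjusted p = 4.3e-09), which exceeded C1ql3 neurons by 0.75 (adjusted p = 3.2e-07), and for Fgf12 with 2893 ± 516 CPM (0.69 ± 0.09, adjusted p = 3.2e-09). They were also called higher for Fgf13 (0.60) and Fgfr1 (0.64) and lower for Fgf10 (12.2 ± 8.33 CPM). Each of these 3 calls was lost in 4 or more of the other fits. Fgf10 fell to -0.24 (adjusted p = 0.56) in sums of at least 25 nuclei and to -0.71 (adjusted p = 0.088) without unsexed library 3, Fgf13 ran from 0.43 to 0.50 in the 4 fits that lost it, and Fgfr1 was 0.42 (adjusted p = 0.20) without unsexed library 3 and -0.026 in the deposited clusters. In the deposited cluster with most Adarb2, Fgf10 and Fgf13 were called as in the split (-2.69 and 0.85).

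Lpl neurons had most Fgf10 among the groups. In the 2 libraries with enough nuclei it was 58.3 and 109 CPM, from 55 UMIs in 33 nuclei, and was called higher by 2.79 ± 0.44 (adjusted p = 1.8e-05). Lpl and Nwd2 neurons did not pass the test against each other (adjusted p = 0.26), and without unsexed library 3 the fold change was 1.49 and missed the call. In the deposited cluster with most Lpl, over 10 libraries, Fgf10 was 69.0 ± 24.4 CPM and higher by 2.15 ± 0.16 (adjusted p = 1.1e-16), and Fgf9 was higher by 1.10 ± 0.12 (adjusted p = 4.4e-11). Adarb2 was at 342 CPM in that cluster, at 312 CPM in the one with most Gad2 and at 1765 CPM in the one with most Adarb2.

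Gad2 neurons were called higher for Fgfr1, with 25.5 ± 9.60 CPM (14.6 to 39.6, n = 8; 1.28 ± 0.21, adjusted p = 8.6e-06). It exceeded C1ql3 and Nwd2 neurons in 8 of 8 libraries, and without unsexed library 3 the fold change was 0.71 and missed the call. In the deposited cluster with most Gad2 the level was 44.6 ± 12.3 CPM over 10 libraries and the fold change 1.99 ± 0.12 (adjusted p = 7.2e-21). The Fgf13 call of the Gad2 group (0.55) turned to -0.43 and its Fgf10 call (-2.24) to 0.13 in the deposited clusters, so no direction is given for these. Fgfr2 and Fgf2 had no call in any of the 5 groups of the split, and in the deposited cluster with most Adarb2 Fgfr2 was called lower (-0.54 ± 0.06, adjusted p = 6.3e-11). Fgfr2 was 490 ± 147 CPM in Nwd2 and 465 ± 150 CPM in C1ql3 neurons (0.16, adjusted p = 0.097).

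A further split used Col12a1, Cadps2 and Npsr1, markers of the subtypes the study calls PVT2, PVT3 and PVT4. It took neurons not assigned to Adarb2, Lpl, Gad2 or Nwd2 that had any C1ql3 UMI or passed the limits of a subtype marker. Many were thus unassigned in the first split, where 3501 were C1ql3 neurons, and the groups may hold neurons from outside the PVT. Of 6140 neurons 1120 were Col12a1, 1008 Cadps2 and 422 Npsr1 neurons, and 3590 had none of these markers past the limits. The last group is not 1 subtype: nuclei of any subtype with few marker UMIs fall in it. Of 28 tests of 7 members 5 were called higher and 2 lower (17.9% and 7.14%), beside 4.41% and 4.17% of the tests of all 9473 genes. By group these shares were 5.65% and 5.59% in Col12a1, 5.75% and 6.22% in Cadps2, 3.16% and 2.81% in Npsr1 and 3.07% and 2.07% in unmarked neurons. Members can pass the filter through their leading group alone, and each group enters the comparisons of the others. The shares therefore describe the members and are not a test. The 7 calls concerned Fgf10, Fgf9 and Fgf1, and each remained in every other fit in which the gene was tested.

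Fgf10 had its highest level in Col12a1 neurons, and which group was lowest turned on how the nuclei were grouped. It ranged from 11.6 through a median of 19.4 to 42.8 CPM in Col12a1 neurons (22.1 ± 8.97 CPM, n = 10), was 12.1 ± 5.07 CPM in neurons with none of the markers and 5.74 ± 3.61 CPM in Cadps2 neurons. Npsr1 neurons had 3 Fgf10 UMIs in 422 nuclei, and 8 of their 10 libraries were at 0. All Col12a1 values lay above all Npsr1 values, and Col12a1 exceeded Cadps2 in 10 of 10 libraries and the unmarked group in 8. Col12a1 neurons were called higher by 2.69 ± 0.21 (adjusted p = 2.4e-18) and exceeded the unmarked group alone by 0.94 (adjusted p = 1.8e-07). The ratio of the Fgf10 share of pooled UMIs between Col12a1 and Npsr1 neurons was 36.3, with a 95% interval of 12.3 to 177 (exact binomial) that covers counting error only. At 2000 UMIs 3.87% ± 1.19 of Col12a1 nuclei and 0.0408% of Npsr1 nuclei had an Fgf10 UMI. In clusters made without the FGF genes, the group with most Col12a1 was higher by 3.80 ± 0.24 (adjusted p = 9.8e-24). There the lowest group was the one with most Cadps2 (-3.75 ± 0.49, adjusted p = 7.8e-10), at most 1.43 CPM in any library, and the one with most Npsr1 followed (-1.70 ± 0.50, adjusted p = 5.8e-03).

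Fgf9 was likewise high in Col12a1 and unmarked neurons. It was 25.9 ± 6.72 CPM in Col12a1 neurons (median 27.0, highest 33.2) and 26.7 ± 5.12 CPM in the unmarked group (22.2 to 40.2), which did not pass the test against each other (adjusted p = 0.67), 8.38 ± 6.33 CPM in Npsr1 and 5.50 ± 3.81 CPM in Cadps2 neurons. Unmarked values lay above all Cadps2 and Npsr1 values. Col12a1 (1.36 ± 0.13, adjusted p = 5.7e-14) and unmarked neurons (1.22 ± 0.11, adjusted p = 1.0e-14) were called higher and Cadps2 neurons lower (-1.98 ± 0.20, adjusted p = 1.3e-13). In clusters made without the FGF genes the group with most Npsr1 was called lower too (-1.75 ± 0.25, adjusted p = 1.2e-08). Fgf1 ran the other way: Cadps2 neurons had 72.5 ± 27.7 CPM (35.9 to 111), were called higher by 0.85 ± 0.09 (adjusted p = 8.9e-13), and exceeded Col12a1 neurons (34.3 ± 14.5 CPM) in 9 of 10 libraries.

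**Figure D4:**
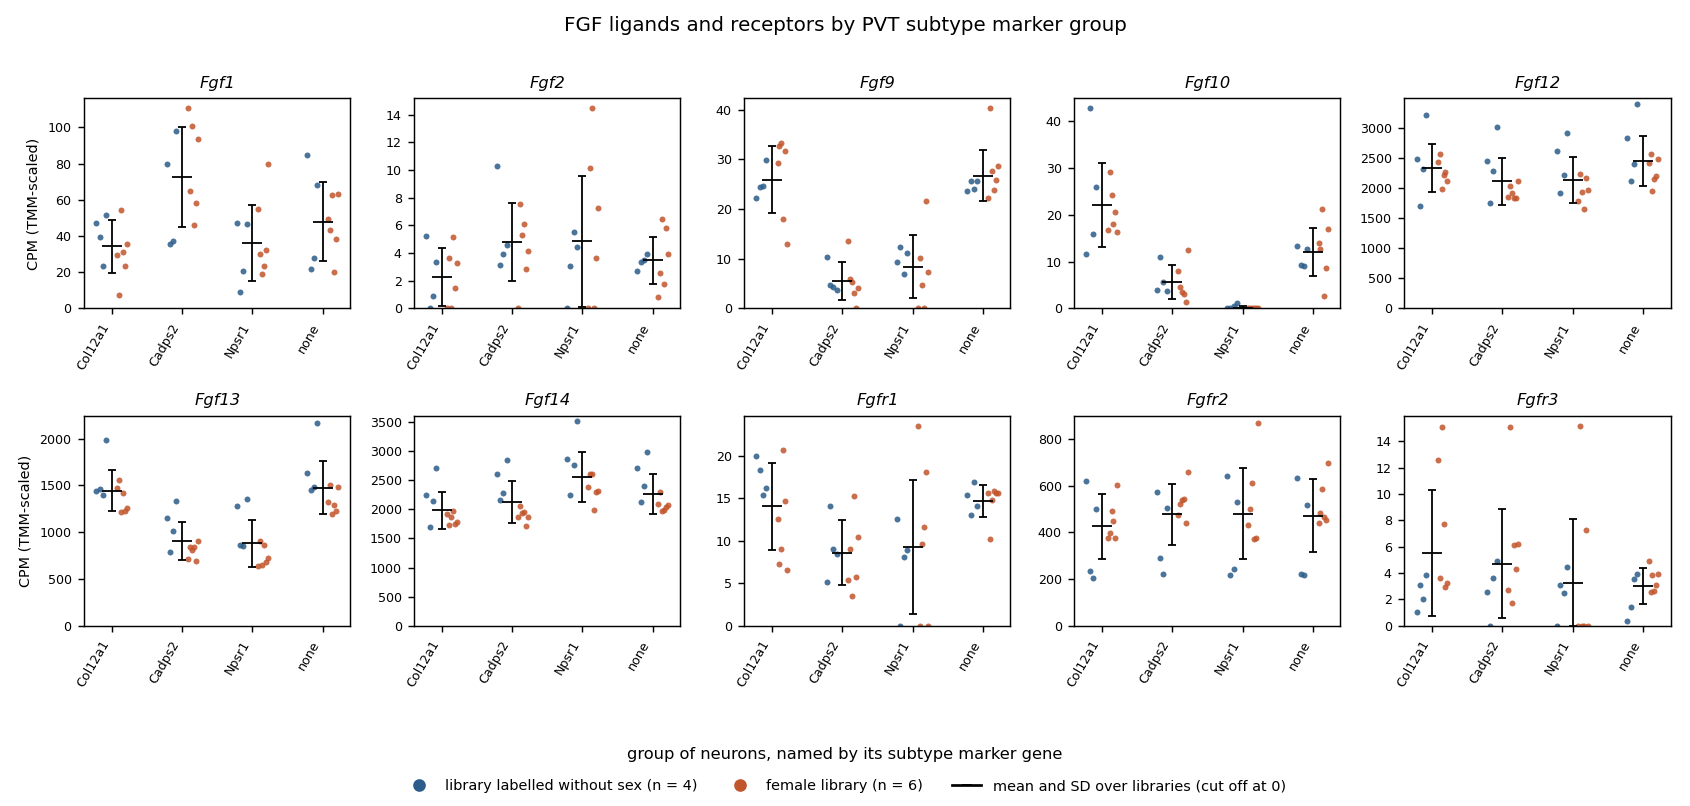
Level of the 10 FGF genes in the neurons of the subtype split, grouped by subtype marker, in CPM with TMM scaling on linear axes that differ between panels; each point is 1 library (blue, labelled without sex; orange, female), bars are mean and SD over 10 libraries, and none stands for neurons without a marker past the limits. Fgf10 was at 11.6 to 42.8 CPM in Col12a1 neurons and at most 1.11 CPM in Npsr1 neurons, and Fgf9 was at 22.2 CPM or more in neurons with none of the markers and at most 13.5 CPM in Cadps2 neurons.

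Among the receptors Fgfr1 was called in 3 of the 4 subtype groups, while the intracellular factors stayed under the limit of 0.5 against the mean of the other groups. Fgf13 was 1443 ± 222 CPM in Col12a1 and 1476 ± 279 CPM in unmarked neurons against 908 ± 203 CPM in Cadps2 and 881 ± 251 CPM in Npsr1 neurons. The fold changes of the 4 groups, 0.42, 0.41, -0.42 and -0.42, all had adjusted p-values of 4.0e-10 or less and all stayed under the limit of 0.5, and Col12a1 exceeded Cadps2 alone by 0.63 (adjusted p = 1.3e-16). Fgf14 was highest in Npsr1 neurons in 10 of 10 libraries (2559 ± 426 CPM), by 0.35 (adjusted p = 6.4e-13), also under the limit. Fgf12 had group means of 2106 to 2446 CPM, with the unmarked group above Cadps2 and Npsr1 neurons in 10 of 10 libraries, and no call. In clusters made without the FGF genes its fold changes were 0.25 in unmarked neurons (adjusted p = 3.0e-11) and -0.22 in the group with most Npsr1 (adjusted p = 3.4e-08). Fgfr2 had group means of 425 to 479 CPM and no call. Fgfr1, fitted without the filter, was called higher in Col12a1 (14.1 ± 5.10 CPM, 0.58) and unmarked neurons (14.7 ± 1.89 CPM, 0.53) and lower in Cadps2 neurons (8.60 ± 3.86 CPM, -0.55), and among all genes in that fit 4.14%, 2.59% and 3.92% were called the same way. In clusters made without the FGF genes these values were 1.17 ± 0.18, 0.65 ± 0.13 and -1.35 ± 0.21, all called (adjusted p of 2.2e-05 or less). Fgf2 was called lower in Col12a1 neurons (-0.84, 36 UMIs) where 4.16% of genes were.

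The astrocytes carry 2 deposited cluster names, and of the FGF genes Fgfr2 alone was called between them. It was 718 ± 220 CPM in the first and 359 ± 89.8 CPM in the second cluster over 9 libraries, lower in the second in 8 of them, by -0.92 ± 0.12 (adjusted p = 2.1e-06). Of all 5928 genes 4.27% were called lower and 14% higher in the second cluster. Within the female libraries alone the fold change was -1.07 ± 0.09 (adjusted p = 1.7e-24), and within the unsexed ones it was -0.52 and missed the call (adjusted p = 0.15). Fgfr3 was 417 ± 39.6 and 475 ± 53.3 CPM, a fold change of 0.29 (adjusted p = 0.012) under the limit.

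Between female and unsexed libraries no FGF gene that passed the filter was called, neither among 10 in neurons nor among 7 in astrocytes, by edgeR or by DESeq2. Of these 17 tests 5 had an unadjusted p under 0.05, and 15.1% of all genes in neurons (6.5% higher and 8.57% lower) and 13.6% in astrocytes (7.61% and 6%) were called. The largest neuronal value was that of Fgfr3 (0.62 ± 0.25, adjusted p = 0.14), and the largest in astrocytes were Fgf13 (-0.67 ± 0.29, adjusted p = 0.14) and Fgf12 (-0.64 ± 0.27, adjusted p = 0.13). Without the filter 2 of 10 members were called lower in astrocytes, where 7.51% of all genes were, and 0 of 10 were called in neurons. Sex, the counts of these neighbours of Fgfr2 and mitochondrial UMIs changed together between the 2 sets and cannot be told apart. Of 124 tests of whether a class difference of a member itself differed between the sets, none passed the adjustment, with 15 at an unadjusted p under 0.05 and a lowest adjusted p of 0.0545, for Fgfr3 in neurons.

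Genes with the pattern most like each member were named by the Pearson correlation of log levels over 15 classes, among 17554 genes. These coefficients describe the classes, which share libraries, and carry no test. Fgfr3 went most with Pla2g7 (r = 0.97), Fgfr1 with Evc2 (0.94), Fgfr2 with Immp1l (0.96), Fgf12 with Disp2 and Rims1 (0.98 each), Fgf13 with Prkce (0.96) and Fgf14 with Ptprn2 (0.96). Fgf10 went with Gm15680 (0.90) and with Gm16263 (0.87), its annotated antisense neighbour, whose reads and those of Fgf10 can be told apart by strand only. The closest for the low-count members were Ranbp3l for Fgf2 (0.92) and Olfr1211 for Fgf9 (0.95), and Fgf1 had the weakest best match, Trim43a (0.86). Among the members themselves Fgf12 and Fgf14 were most alike (0.85), then Fgf12 and Fgf13 (0.81).

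The rest of the pathway was described by lists. The 5 sodium channel alpha subunits that intracellular FGFs bind were all called higher in neurons, with a median fold change of 2.85 beside 0.02 for all genes, led by Scn9a (3.75 ± 0.17) and Scn1a (2.92 ± 0.14). In OPCs 4 of 5 were higher, with a median of 1.27 beside -0.06 and 19.2% of all genes called higher. In oligodendrocytes all 5 were lower, and in astrocytes and microglia 4 were, with median fold changes of -0.89, -1.54 and -0.69. In these 3 types 26%, 19.8% and 27.4% of all genes were called lower, and in neurons 29.7% were called higher. In Nwd2 neurons, where Fgf13 and Fgf12 were low, Scn9a (-1.37 ± 0.12) and Scn1a (-0.52 ± 0.09) were lower and Scn3a higher (1.07 ± 0.07).

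Feedback and target genes of FGF signalling were called higher most often in OPCs and astrocytes and lower most often in neurons and ependymal cells, with 7 of 11 in each of the last 2 types. Of all genes 19.2% were called lower in ependymal cells. Of 11 tested genes 8 were higher and 0 lower in OPCs (median 1.30 beside -0.06), led by the transcription factors Etv4 (173 CPM, 6.25 ± 0.21) and Etv5 (218 CPM, 3.44 ± 0.17). In OPCs 19.2% of all genes were called higher and 14.7% lower. In astrocytes 7 were higher and 2 lower (median 0.85 beside -0.01, with 21.4% and 19.8% of all genes called), and in neurons 1 was higher and 7 lower (median -0.82 beside 0.02, with 29.7% and 27.5%). Il17rd, an inhibitor of the receptor, was lowest in oligodendrocytes (-3.32 ± 0.41). Among neuron groups Nwd2 neurons had 5 of 10 higher, with Etv4 (4.00 ± 0.66) and Il17rd (3.99 ± 0.41), and 1 lower, Rnd1 (-1.12 ± 0.33). In that group 21.7% of all genes were called higher and 18.6% lower. In the subtype split 4 genes of the list were tested, and Etv1 alone was called. It was higher in Col12a1 (68.8 CPM, 1.29 ± 0.08) and unmarked neurons (58.4 CPM, 0.84 ± 0.07). In Cadps2 (-1.28 ± 0.11) and Npsr1 neurons (-0.84 ± 0.13) Etv1 was lower. Of all genes 5.65% were called higher in Col12a1 and 3.07% in unmarked neurons, and 6.22% lower in Cadps2 and 2.81% in Npsr1 neurons.

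Genes of the adaptor and kinase cascade were called most often in endothelial cells, with 8 of 17 higher and 1 lower (median 0.56 beside -0.19). There 18.4% of all genes were called higher and 20% lower. Of the 17, 0 were higher and 6 lower in neurons (median -0.29 beside 0.02), and 5 were higher and 1 lower in oligodendrocytes, where 20.8% and 26% of all genes were called. The adaptor Gab1 set the range, with 684 CPM and 2.34 ± 0.09 in oligodendrocytes and 11.5 CPM and -4.39 ± 0.14 in neurons, and within neurons it was higher in Nwd2 (2.85 ± 0.27) and Cadps2 neurons (2.28 ± 0.16). Co-receptors and heparan sulfate enzymes had 14 of 25 higher and 3 lower in neurons, 2 higher and 15 lower in oligodendrocytes, 2 higher and 16 lower in microglia, 8 higher and 9 lower in astrocytes, and 10 higher and 1 lower in fibroblasts, where 11.2% and 9.12% of all genes were called. For all genes these shares were 29.7% and 27.5% in neurons and 20.8% and 26% in oligodendrocytes. They were 22.8% and 27.4% in microglia and 21.4% and 19.8% in astrocytes. Gpc5, a heparan sulfate proteoglycan, led in astrocytes (5771 CPM, 4.27 ± 0.24) and Gpc3 in fibroblasts (98.5 CPM, 4.98 ± 0.33). The sulfatase Sulf2 was higher in Nwd2 neurons (112 CPM, 4.06 ± 0.22) and Sulf1 lower (12.4 CPM, -3.54 ± 0.24), and Gpc6 was higher in Col12a1 (1624 CPM, 2.39 ± 0.06) and lower in Cadps2 neurons (144 CPM, -2.20 ± 0.08).

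Of the 17 other FGF ligands and receptors none passed the filter across cell types and 4 did across neuron groups. Fgfr4, the remaining receptor of the family, was higher in Nwd2 neurons with 13 CPM beside 0.483 CPM in the other groups (5.89 ± 0.54, adjusted p = 2.9e-13). Fgf7, a relative of Fgf10, was higher in Adarb2 neurons with 11.6 beside 1.63 CPM (3.66 ± 0.40, adjusted p = 1.6e-10). Between the 2 sets of libraries, Fgf20 was higher in the female ones in astrocytes (5.73 ± 0.46) and neurons (4.05 ± 0.56), with 356 UMIs against 35 in all, and the heparan sulfate enzyme Ndst1 was lower (-1.17 ± 0.17 and -1.32 ± 0.10).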

How the data were processed

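Single-nucleus RNA libraries (10x 3′ chemistry) of PVT punches had been aligned to mm10 with Cell Ranger 6.1.1 according to the submitters' processing notes, while the methods name an earlier Cell Ranger version. The deposited matrix holds UMI counts per gene and nucleus, and the authors kept nuclei with at least 200 genes and up to 5% mitochondrial UMIs. They also excluded clusters with markers of several cell types as doublets, and no doublet caller was run here. A deposited metadata table gave the library, cluster name and percent of mitochondrial UMIs of each nucleus, and 22 of its columns were not used. The members and gene lists were chosen with earlier results of these data known.

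UMI counts of all but the mitochondrial genes were summed per library and class with at least 10 nuclei. Sums were fitted with edgeR 4.0.16 (R 4.3.3) by the quasi-likelihood test with TMM scaling, the filter filterByExpr and the library as a block, and p-values were adjusted by Benjamini-Hochberg over all genes tested. Members that did not pass the filter were fitted without it. Between female and other libraries a call needed an adjusted p under 0.05 only. DESeq2 1.42.0 was an alternative. Neurons with over 1000 genes were assigned to the marker with the highest level relative to its 95th percentile over neurons, among markers with at least 2 UMIs and a relative level of at least 0.25. The percentile of Lpl was 0, so 2 Lpl UMIs were enough. Shares of nuclei are expected values after thinning each nucleus to 2000 UMIs. Named genes of a list are those with the largest fold changes in each direction among those called. The numbers of same-numbered libraries did not pair them, with correlations between -0.168 and 0.102. The fitting step was tested on simulated data. Computation used Python 3.11.15, numpy 2.4.6, scipy 1.17.1, pandas 2.3.3 and scanpy 1.11.5. Intervals cover counting error only.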

Additional observations from a re-analysis of the deposited data

Results flagged for a closer look

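Among 46 groups of 4 to 6 libraries of the same set examined, 3 held a library far from the others by Dixon's criterion, which chance gives in about 1 of 20 groups. Fgf1 in astrocytes was 223 CPM in unsexed library 1, where the other unsexed libraries had 142 to 156 CPM. In neurons of the subtype split with none of its markers, female library 2 had Fgf9 at 40.2 CPM, where the other female libraries had 22.2 to 28.6 CPM. The same library had Fgfr1 at 10.2 CPM, where the others had 14.8 to 15.9 CPM. No class difference differed between the 2 sets of libraries after adjustment over 124 tests (lowest adjusted p = 0.0545, edgeR quasi-likelihood).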

How the results depend on the processing

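Calls that kept their direction and side of the threshold under all alternatives in which their gene was fitted were 23 of 37 across cell types, 9 of 22 across neuron groups, 7 of 7 across PVT subtype groups and 0 of 1 between astrocyte clusters. Only 4 of the 7 subtype calls had a fit in female libraries alone, with up to 1% mitochondrial UMIs and with at least 1 marker UMI. The same held without unsexed library 3 and without unsexed library 4. Across neuron groups 19 of the 22 calls had a fit in female libraries alone and in sums of at least 25 nuclei. With nuclei of up to 1% mitochondrial UMIs alone the ependymal fold changes turned to 0.91 for Fgf1, 0.49 for Fgf13 and -0.10 for Fgfr3. In the deposited neuron clusters those of Gad2 neurons turned to 0.13 for Fgf10 and -0.43 for Fgf13, with -0.59 for Fgf13 in clusters made without the FGF genes, and that of Fgfr1 in Adarb2 neurons to -0.026. The 7 subtype calls became 4 with at least 1 marker UMI, 12 with at least 3, 11 with at least 25 nuclei, 13 without the filter and 12 in clusters made without the FGF genes. Leaving out 1 library gave 4 to 11, with 4 without unsexed library 4 and 11 without female library 4. The astrocyte clusters gave 2 calls in female and 0 in unsexed libraries alone, and 1 to 2 with 1 library left out, 2 without unsexed library 4. The female comparison gave 2 calls without the filter, both lower in astrocytes, and 0 to 3 with 1 library left out, 3 without unsexed library 2. Cell types gave 36 to 39 calls and neuron groups 17 to 23 with 1 library left out. The replicate block, added after seeing the data, gave 0 calls in the female comparison, and the fits with no replicate block, that is without the library, gave 35, 21, 7 and 1 calls in the other comparisons. The share of astrocyte nuclei with an Fgfr3 UMI, 55.9% at 2000 UMIs, was 65.7% without thinning and 33.4% at 1000 UMIs. The cause of these changes was not tested, and the alternative of up to 1% mitochondrial UMIs could not be run for the astrocyte clusters. That alternative used the deposited percent of mitochondrial UMIs, while mitochondrial genes had 0 UMIs in the unsexed libraries of the matrix. The 2 sets of libraries may therefore not have been filtered alike by it. Low UMI totals limit Fgf2, Fgf9 and Fgf10 outside neurons.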
